A study of Mus musculus with 12 samples.

Results

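The JNK cascade genes described here are the 3 JNK kinase genes Mapk8, Mapk9 and Mapk10, the kinase genes Map2k4 and Map2k7 that act directly above them, and the JNK scaffold genes Mapk8ip1, Mapk8ip2, Mapk8ip3 and Mapkbp1. They are a fixed set of symbols, taken by their known role with earlier results of these data in view but with no threshold on measured values, and all 9 of 9 occur once among the 23184 symbols of the deposited table. The values are TPM, a transcript level scaled for transcript length and library total, from RNA sequencing of cultured HL-1 cells. This mouse line comes from an atrial tumour, and the labels call it cardiac muscle; it was kept in serum-containing medium. The 12 libraries formed 3 groups of 4. Control cells (CON, genotype WT) carried the pCDH and lentiCRISPRv2 vectors. Knockdown cells (KD, genotype WDR62-) had received a virus with a CRISPR guide against Wdr62, and re-expression cells (RE, genotype WDR62+) were KD cells infected in addition with a pCDH virus carrying WDR62 with a flag tag. KD is thus the group for which the labels name no pCDH vector. The treatment labels of the 4 KD and the 4 RE libraries differ by a running number, while the protocol text names 1 guide target and 1 construct; whether the cells were a clone or a pool, and the construct's species, the labels do not say. CON libraries are numbered as their columns (WT1 to WT4) are.

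JNKs are mitogen-activated protein kinases that respond to stress and cytokines. A MAP3K activates the dual-specificity kinases MKK4 (Map2k4) and MKK7 (Map2k7), which phosphorylate JNK1 (Mapk8), JNK2 (Mapk9) or JNK3 (Mapk10), and these phosphorylate transcription factors such as c-Jun and ATF2. Scaffold proteins hold the layers together: JIP1 (Mapk8ip1), JIP2 (Mapk8ip2) and JIP3 (Mapk8ip3) bind the kinases and also kinesin motors, and WDR62 and its paralogue MAPKBP1 (also called JNKBP1) are WD40-repeat proteins that bind JNK. In heart muscle JNK1 and JNK2 are the widely expressed forms, and JNK3 is known chiefly from brain, heart and testis. Transcript levels do not measure phosphorylation, so none of the values below is a kinase activity.

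The targeted gene, Wdr62, averaged 5.99 ± 1.79 TPM in CON and fell in KD (log2 fold change on log2(TPM + 1), -1.67 ± 0.25 SE; limma adjusted p = 0.000921). It stood at 1.27 ± 0.578 TPM (SD, n = 4) in RE against 1.15 ± 0.275 in KD. The log2 fold change was 0.05 ± 0.25 in RE against KD (limma adjusted p = 0.895) and -1.62 ± 0.25 in RE against CON (0.00147). With a length correction, described below, these values were 0.68 (limma adjusted p = 0.128) and -1.02 (0.0175). That correction removes the same log2 amount from low as from abundant genes, and Wdr62 was low in KD and RE. A rise of Wdr62 in RE over KD was thus not called. Of 22 cardiac markers, 8 had a mean of at least 1 TPM in CON, among them Atp2a2 (227 TPM), Tnnt2 (20.7) and Gata4 (8.69). In every CON library 7 were listed at 0, including the cardiac actin gene Actc1, Actn2 and the atrial myosin light chain gene Myl7. Myh6 averaged 0.00797 TPM in CON. Of 8 fibroblast markers, 6 had a mean of at least 1 TPM and 2 (Lum and Tcf21) were listed at 0. No endothelial marker reached 1 TPM in any group. Some marker lists moved with the groups. Of 4 tested skeletal muscle markers, 4 fell in KD against CON and 3 in RE against CON (Myod1 by 2.80 on the log2 scale in both). Their list summed to 21.8 to 41.1 TPM in CON, 8.26 to 10.5 in KD and 7.35 to 15.2 in RE. Of 3 tested neuronal markers, 1 fell in KD against CON and 1 in RE against CON. The neuronal list summed to 51.1 to 90.2 TPM in CON, 24.4 to 48.5 in KD and 29.4 to 45.7 in RE. Of 6 tested cardiac markers, 1 rose in KD against CON and 1 in RE against CON. The cardiac list summed to 135 to 352 TPM in CON, 213 to 405 in KD and 157 to 249 in RE. Of 6 tested fibroblast markers, 2 fell in KD against CON, 2 in RE against KD and 4 in RE against CON. Their list summed to 2752 to 4265, 2953 to 4252 and 1560 to 2525 TPM in CON, KD and RE. With the length correction 1 rose and 1 fell in KD against CON, 0 were called in RE against KD and 2 fell in RE against CON. The counts of the other marker lists were the same with that correction. Of all tested genes, 10.2%, 1.04% and 6.33% were called as deposited in the same order of comparisons. With the length correction 1346 were called higher and 1212 lower in KD against CON, and 122 and 102 in RE against KD. In RE against CON 900 were then higher and 598 lower. The part of the marker shifts in the results below was not tested. CON 4, RE 1 and RE 3 stood apart: among the 2264 tested genes of at least 4315 bases, the library's median departure from each gene's own mean (log2) was -0.82, -0.71 and -0.99, while CON 1 to 3 lay at 0.46 to 0.68 and RE 2 and RE 4 at -0.10 and -0.12. KD libraries lay between -0.20 (KD 3) and 0.55 (KD 1). In RE against KD the median log2 fold change of all tested genes was -0.29, and in RE against CON -0.27, against -0.01 in KD against CON. With median-of-ratios scaling these medians were 0.01, 0.01 and -0.03, so changes that involve RE are read relative to the shift. Most of the JNK cascade genes have long transcripts (median annotated length 6630 bases for Mapk10, 5815 for Mapkbp1, 5424 for Mapk8ip3, 4675 for Mapk9, 3695 for Map2k4 and 3102 for Mapk8ip1; Map2k7 at 1600 and Mapk8 at 1528 have annotated transcripts of up to 3525 and 5756 bases). Length-corrected values are therefore given beside the deposited ones.

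**Figure D1:**
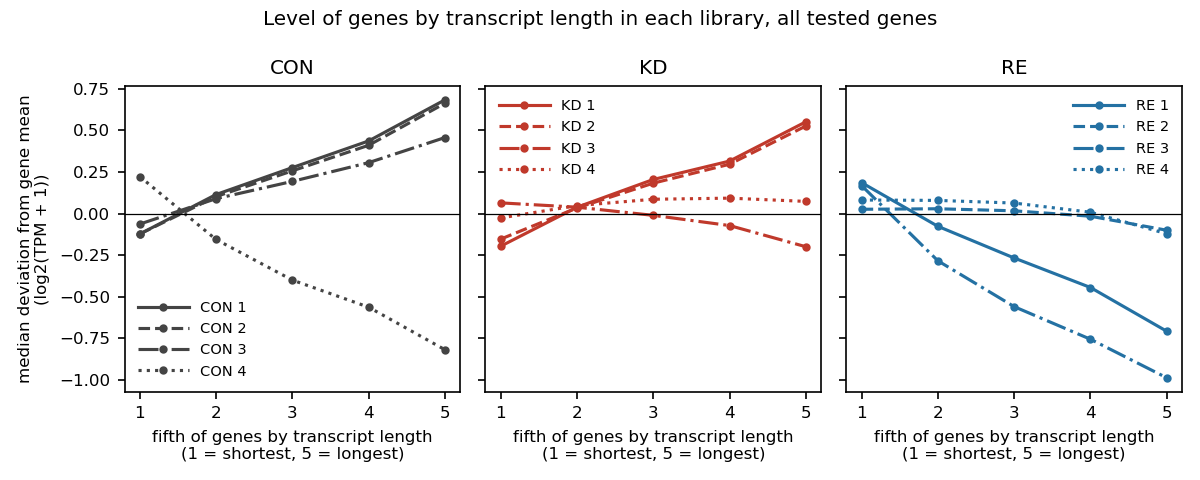
Median deviation of all tested genes from their mean over the 12 libraries (log2(TPM + 1), y axis) in 5 equal bins of median transcript length (x axis, bin 1 shortest), 1 line per library. CON 4, RE 1 and RE 3 fall to -0.82, -0.71 and -0.99 in the longest bin, where CON 1 and CON 2 reach 0.68 and 0.66.

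In control cells Map2k4 was the most abundant of the 9 genes at 54.8 ± 21.4 TPM (SD, n = 4). Mapk8ip3 (37.5 ± 9.34), Mapk9 (34.1 ± 9.59), Map2k7 (32.1 ± 6.01) and Mapk8ip1 (23.5 ± 3.29) followed, then Mapkbp1 (12.6 ± 3.96) and Mapk8 (11.0 ± 4.69). In the GENCODE annotation of GRCm38 the genes lie at chr14:33377898-33447158 (Mapk8), chr11:49846751-49886421 (Mapk9), chr5:102907948-103211334 (Mapk10), chr11:65688243-65788297 (Map2k4), chr8:4238740-4247897 (Map2k7), chr2:92383676-92401263 (Mapk8ip1), chr15:89453913-89464468 (Mapk8ip2), chr17:24892153-24936977 (Mapk8ip3) and chr2:119972699-120027408 (Mapkbp1). Neighbours in the order of levels overlapped in range down to Mapk8ip1, and so did Mapkbp1 and Mapk8. Mapk8ip1 lay above Mapkbp1, and Mapk8 above Mapk10, in 12 of 12 libraries. Mapk10 stood at 0.392 ± 0.115 TPM in CON, and Mapk8ip2, the JIP2 gene, was listed at 0 in 11 libraries and at 0.0350 TPM in CON 3. With a minimum mean of 1 TPM over the 12 libraries, 7 of the 9 genes entered the test across all genes; Mapk10 and Mapk8ip2 did not.

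None of the 7 tested JNK cascade genes changed in any of the 3 comparisons at an adjusted p below 0.05 (limma, Benjamini-Hochberg over 11774 genes). Of all tested genes, 10.2% were called in KD against CON, 1.04% in RE against KD and 6.33% in RE against CON. At an unadjusted p below 0.05 the numbers of the 7 genes were 1, 4 and 1, against 23.8%, 28% and 28.4% of all tested genes. The groups did not overlap for 1, 1 and 0 of the 7, against 18.9%, 14.3% and 9.22% of all tested genes. The median log2 fold change of the 7 genes was 0.10 in KD against CON (5 above 0 and 2 below), -0.62 in RE against KD (7 of 7 below 0) and -0.41 in RE against CON (1 above and 6 below). Of all tested genes, 71.9% lay below 0 in RE against KD and 69.3% in RE against CON. The comparisons share libraries and are not independent of each other. Beside limma, 24 exact two-sided permutation tests of 4 against 4 log2 values were run on 8 of the genes (not Mapk8ip2), with a smallest possible p of 0.0286. The labels name no separate cultures for the replicates, and all p-values therefore speak of the spread among these libraries, which may be technical. In bulk RNA, fewer cells of a kind and less RNA per cell cannot be told apart.

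**Figure D2:**
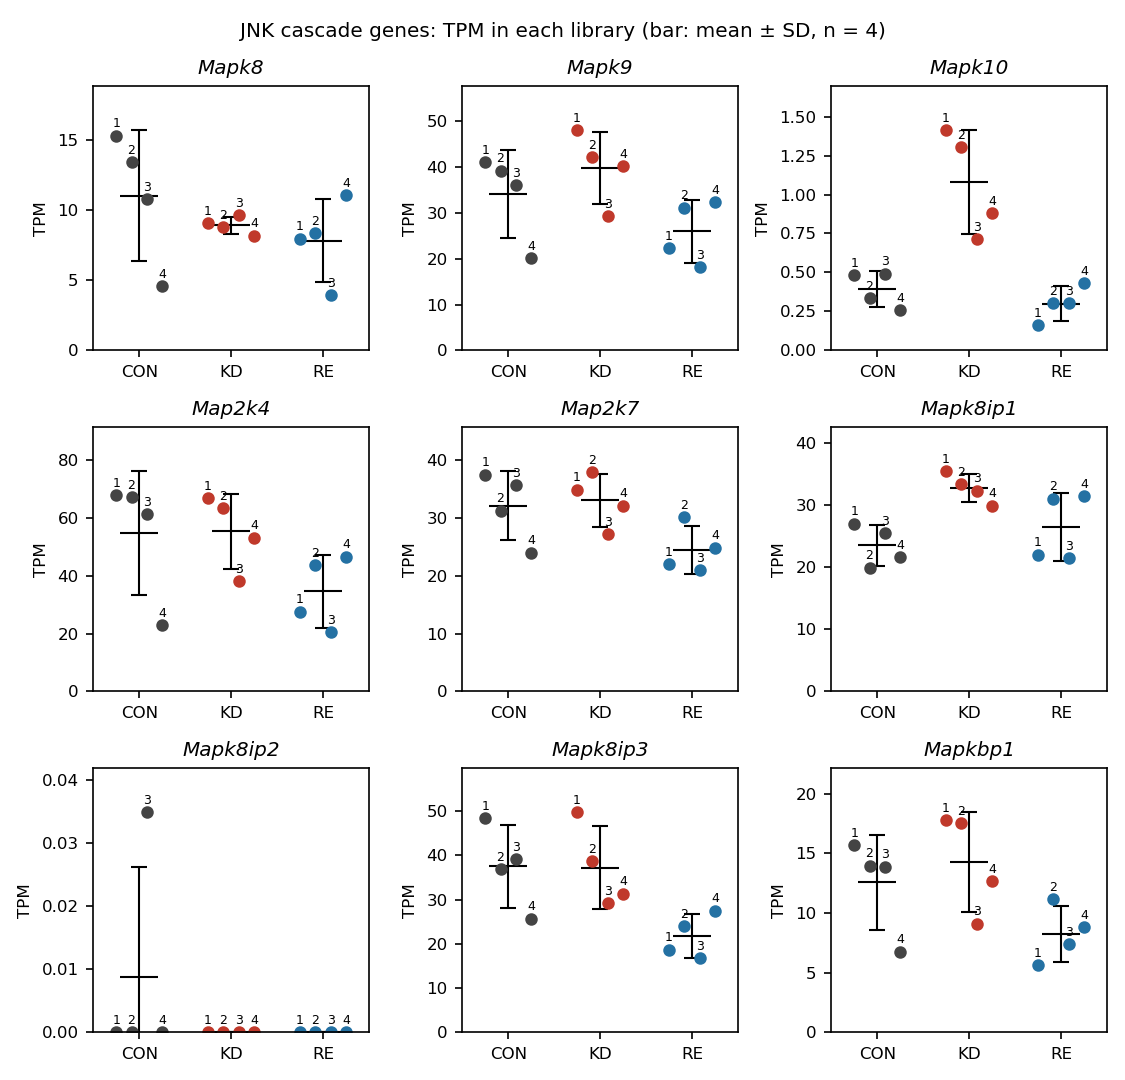
TPM (y axis, from 0) of each JNK cascade gene in every library, as points numbered by library, in CON, KD and RE (x axis), with the mean ± SD of 4. The KD points of Mapk10 (0.715 to 1.41 TPM) and Mapk8ip1 (29.9 to 35.5 TPM) lie above all CON points of the same gene.

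The JNK3 gene, Mapk10, gave the widest separation among the kinase genes, at a low level. It stood at 0.481, 0.334, 0.493 and 0.258 TPM in CON 1 to 4, at 1.41, 1.30, 0.715 and 0.880 in KD 1 to 4, and at 0.161, 0.305, 0.305 and 0.430 in RE 1 to 4. Every KD library lay above every CON and every RE library, and CON and RE overlapped. The KD mean was 2.75 times the CON mean, and the RE mean was 0.278 times the KD mean (exact permutation p = 0.0286 for each, the smallest these groups allow; 0.286 for RE against CON). Among 1220 genes with a mean of 0.25 to 1 TPM, the KD group lay wholly above CON in 12.9% and the RE group wholly below KD in 9.67%. In a limma fit of all 17096 genes above 0 in any library, Mapk10 rose in KD against CON by 0.57 ± 0.11 on the log2(TPM + 1) scale (adjusted p = 0.00899) and fell in RE against KD (log2 fold change -0.67 ± 0.11, adjusted p = 0.0301), whereas 5.75% of genes were called higher and 0.667% lower in those comparisons. With a pseudocount of 0.1, which compresses low values less, the log2 fold changes were 1.25 and -1.56 (adjusted p = 0.0263 and 0.0476).

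The rise of Mapk10 in KD passed with each single library left out (adjusted p of 0.00366 to 0.0316) and without CON 4, RE 1 and RE 3 (0.0173). Its fall in RE passed only without CON 4, KD 3 or RE 2 among the 12 single omissions (adjusted p up to 0.114, without KD 2), and not without CON 4, RE 1 and RE 3 (log2 fold change -0.59, 0.145). The fall in RE also did not pass in a fit of KD and RE alone with a replicate block (adjusted p = 0.125). That fit left out the CON libraries as well, so the part of the block alone was not tested. With the length correction neither passed (0.58 with adjusted p = 0.111, and -0.07 with 0.844); that correction removes the same log2 amount from low as from abundant genes. The 500 tested genes nearest to Mapk10 in transcript length had a median log2 fold change of -0.05 in KD against CON and -0.79 in RE against KD. Those genes averaged at least 1 TPM and Mapk10 averaged 0.59, where the log2(TPM + 1) scale compresses changes, so the sizes are not directly comparable. The table holds no read counts, so the number of reads behind these values is unknown.

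The RefSeq promoter windows of Mapk10 (GRCm38.p6, 250 bases before to 50 bases after an annotated start, minus strand) are shown because Mapk10 is the member whose libraries separated most. The cAMP response element TGACGTCA, a motif bound by ATF2 and c-Jun dimers, is in capitals. The pattern TGANTCA, the AP-1 motif with any base allowed at its centre, was searched as well. Each reads the same on both strands, and neither contains the other. The windows are chr5:103211285-103211584 and chr5:103058343-103058642.
Mapk10 upstream start: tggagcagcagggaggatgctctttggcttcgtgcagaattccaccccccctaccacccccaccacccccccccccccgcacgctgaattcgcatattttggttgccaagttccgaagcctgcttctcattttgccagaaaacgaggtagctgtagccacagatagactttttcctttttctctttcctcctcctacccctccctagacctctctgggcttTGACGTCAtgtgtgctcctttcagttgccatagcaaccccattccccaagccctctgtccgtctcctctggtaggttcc
Mapk10 downstream start: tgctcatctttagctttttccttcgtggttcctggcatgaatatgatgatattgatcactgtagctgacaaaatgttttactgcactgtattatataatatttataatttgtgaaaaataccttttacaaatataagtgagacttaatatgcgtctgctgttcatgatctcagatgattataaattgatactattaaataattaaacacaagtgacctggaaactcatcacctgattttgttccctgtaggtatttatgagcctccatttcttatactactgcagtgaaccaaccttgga
The upstream window holds 1 match to TGACGTCA, whose first base lies at -29 from the start; 1.79% of 32851 promoter windows of this length hold one. Of 12 windows for 8 of the JNK cascade genes, it was the only one with this motif. In the form TGATTCA, 1 window of Map2k7 held the pattern TGANTCA, which 7.81% of all windows held. Which start was used in these cells cannot be read from a table with 1 value per gene, and a match is no evidence of binding.

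Mapk8, the JNK1 gene, stood at 15.4, 13.5, 10.8 and 4.59 TPM in CON 1 to 4, at 9.10, 8.78, 9.65 and 8.20 in KD and at 7.99, 8.36, 3.93 and 11.1 in RE. CON spanned the whole KD range, with CON 4 below and CON 1 to 3 above every KD library. KD differed from CON by -0.17 ± 0.34 (95% interval -0.91 to 0.57) (log2; limma adjusted p = 0.853, exact p = 0.714). Without CON 4, RE 1 and RE 3 it was -0.50 (limma adjusted p = 0.0310), in a fit that called 25.3% of all genes lower, and with median-of-ratios scaling as well -0.37 (0.0795). In RE against KD it was -0.24 ± 0.34, a value whose sign turned with median-of-ratios scaling (0.05). The length-corrected value was -0.21 (adjusted p = 0.671), and the median of genes of similar median transcript length was -0.05.

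Mapk9, the JNK2 gene, stood at 41.1, 39.3, 36.1 and 20.1 TPM in CON 1 to 4, at 48.1, 42.1, 29.3 and 40.2 in KD and at 22.3, 31.1, 18.2 and 32.4 in RE. The low CON library was again CON 4, and RE overlapped both other groups. Its log2 fold change was 0.25 ± 0.26 in KD against CON (interval -0.32 to 0.82, adjusted p = 0.660) and -0.62 ± 0.26 in RE against KD (adjusted p = 0.166, exact p = 0.0857). The 500 genes nearest in length had a median of -0.61 in RE against KD, and with the length correction the value for Mapk9 was 0.00.

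Mapk9 made up most of the JNK transcripts in every library. Its share of the summed TPM of the 3 JNK genes was 75.7% ± 3.60 in CON, 79.5% ± 3.83 in KD and 76.6% ± 3.79 in RE, and that of Mapk8 23.4% ± 3.73, 18.3% ± 4.04 and 22.5% ± 4.05 (SD, n = 4). These ranges overlapped between groups. Mapk10 took 0.629% to 1.04% in CON, 1.79% to 2.499% in KD and 0.529% to 1.36% in RE, so that the KD libraries lay above all others. These shares are ratios within a library and do not change with its scaling. They can change with its length trend, since median transcript lengths were 1528 bases for Mapk8, 4675 for Mapk9 and 6630 for Mapk10. The part of that trend in the shares was not tested.

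**Figure D3:**
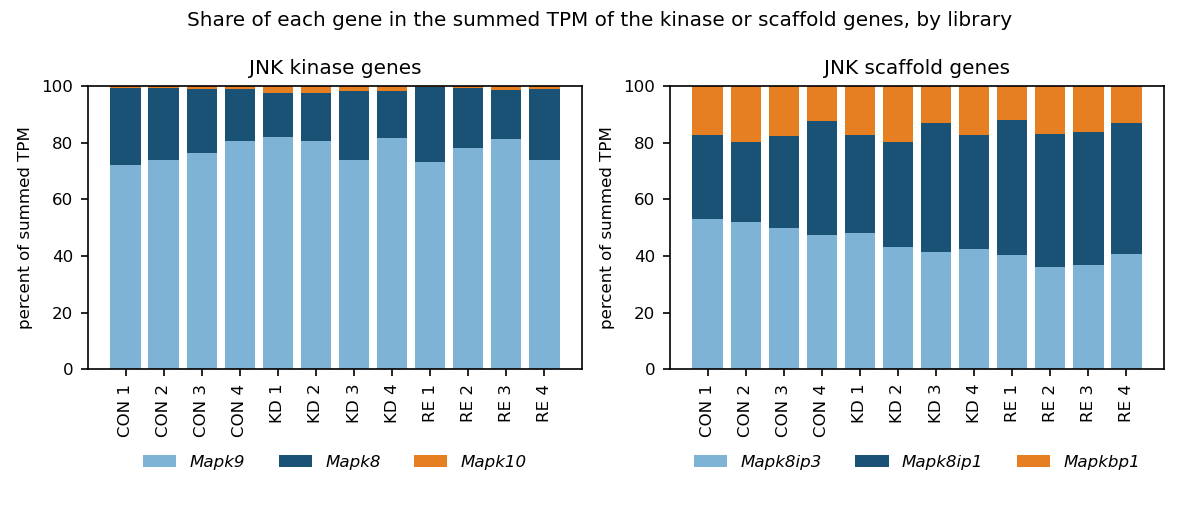
Percent of summed TPM (y axis) taken by each JNK kinase gene (left) and each JNK scaffold gene (right, Mapk8ip2 left out for its near-zero level), 1 stacked bar per library. Mapk10 takes 1.79% to 2.499% in the KD libraries and at most 1.36% in the others, and Mapk8ip1 46.4% to 47.5% of the scaffold genes in RE.

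The kinase genes directly above JNK did not pass the test. Map2k4, for MKK4, which also acts on p38 kinases, stood at 67.9, 67.2, 61.3 and 23.0 TPM in CON 1 to 4, at 67.0, 63.5, 38.1 and 53.2 in KD and at 27.6, 43.7, 20.5 and 46.7 in RE. CON 4, RE 1 and RE 3 were the 3 lowest libraries. On the log2 scale it differed by 0.10 ± 0.36 in KD against CON (adjusted p = 0.928) and -0.71 ± 0.36 in RE against KD (adjusted p = 0.203), where genes of similar length had a median of -0.47. Without CON 4 the value in KD against CON turned to -0.27 (adjusted p = 0.499), and with the length correction that in RE against KD was -0.21 (0.352).

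Map2k7, for the JNK-specific MKK7, stood at 37.5, 31.3, 35.7 and 24.02 TPM in CON 1 to 4, at 34.9, 37.95, 27.2 and 32.2 in KD and at 22.0, 30.2, 21.0 and 24.9 in RE. All 3 groups overlapped, with 3 of 4 RE libraries below every KD library. It differed by 0.05 ± 0.19 (log2) in KD against CON (adjusted p = 0.933) and -0.42 ± 0.19 in RE against KD (adjusted p = 0.171, exact p = 0.0571). The median of genes of similar median length was -0.03 there, and the corrected value was -0.37 (0.154), but -0.04 (0.849) when the correction used the longest transcript. Of its 3771 exonic bases in the GENCODE annotation, 1349 are shared with the gene model Gm49320 on the same strand. Gm49320 has no deposited value, and whether reads were divided between the 2 models is unknown.

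Mapk8ip1, for JIP1, lay higher in KD than in CON in all libraries without passing the adjusted test. It stood at 27.0, 19.9, 25.5 and 21.7 TPM in CON 1 to 4, at 35.5, 33.4, 32.4 and 29.9 in KD and at 22.1, 31.1, 21.4 and 31.5 in RE. The KD and CON ranges did not overlap, while RE fell into a high pair (RE 2 and RE 4) and a low pair (RE 1 and RE 3). The log2 fold change in KD against CON was 0.47 ± 0.17 (interval 0.09 to 0.85, adjusted p = 0.118, exact p = 0.0286). Of all tested genes, 11.9% had a KD group wholly above CON. It passed in 3 alternatives, whose share of all genes called higher is given with each: without CON 4, RE 1 and RE 3 (0.44, adjusted p = 0.0236; 14.3%), with median-of-ratios scaling of the remaining libraries (0.57, 0.00596; 19.4%) and with the length correction on the longest transcript (0.45, 0.0467; 12.2%). With the correction on the median transcript length it was 0.44 (0.0745). RE against CON gave 0.15 ± 0.17 as deposited, 0.52 with that correction (0.0555), and 0.61 with median-of-ratios scaling without the 3 libraries (0.0157; 14.5% of all genes called higher).

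Mapk8ip3, for JIP3, had its lowest mean in RE without passing the adjusted test in any comparison. It stood at 48.4, 36.8, 39.0 and 25.7 TPM in CON 1 to 4, at 49.7, 38.7, 29.2 and 31.3 in KD and at 18.7, 23.96, 16.8 and 27.5 in RE. Every RE library lay below every KD library (10.8% of all tested genes showed this), and CON 4 reached into the RE range. The log2 fold change was -0.01 ± 0.24 in KD against CON (interval -0.52 to 0.51), -0.74 ± 0.24 in RE against KD (adjusted p = 0.117, exact p = 0.0286) and -0.75 ± 0.24 in RE against CON (adjusted p = 0.0865). Genes of similar length had medians of -0.68 in both comparisons with RE, and with the length correction the values were -0.06 and -0.07 (adjusted p = 0.852 and 0.779).

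Mapkbp1, the Wdr62 paralogue, did not pass the test in any comparison. It stood at 15.7, 14.0, 13.9 and 6.77 TPM in CON 1 to 4, at 17.8, 17.6, 9.12 and 12.7 in KD and at 5.64, 11.2, 7.39 and 8.84 in RE. The groups overlapped in each comparison, with CON 4 in the RE range. The log2 fold change was 0.19 ± 0.30 in KD against CON (interval -0.46 to 0.83, adjusted p = 0.804) and -0.71 ± 0.30 in RE against KD (adjusted p = 0.162), where the median of genes of similar length was -0.71 and the length-corrected value 0.00. The ratio of Mapkbp1 to Wdr62 TPM was 2.001 to 2.13 in the CON libraries, 6.64 to 18.6 in KD and 3.83 to 14.5 in RE. Its denominator is the targeted gene, with means of 5.99, 1.15 and 1.27 TPM. The ratio therefore rises with the fall of Wdr62 even where Mapkbp1 is unchanged. Of the 6960 exonic bases of Mapkbp1, 627 overlap the antisense gene Gm13999, whose reads cannot be told apart where strand is unknown.

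**Figure D4:**
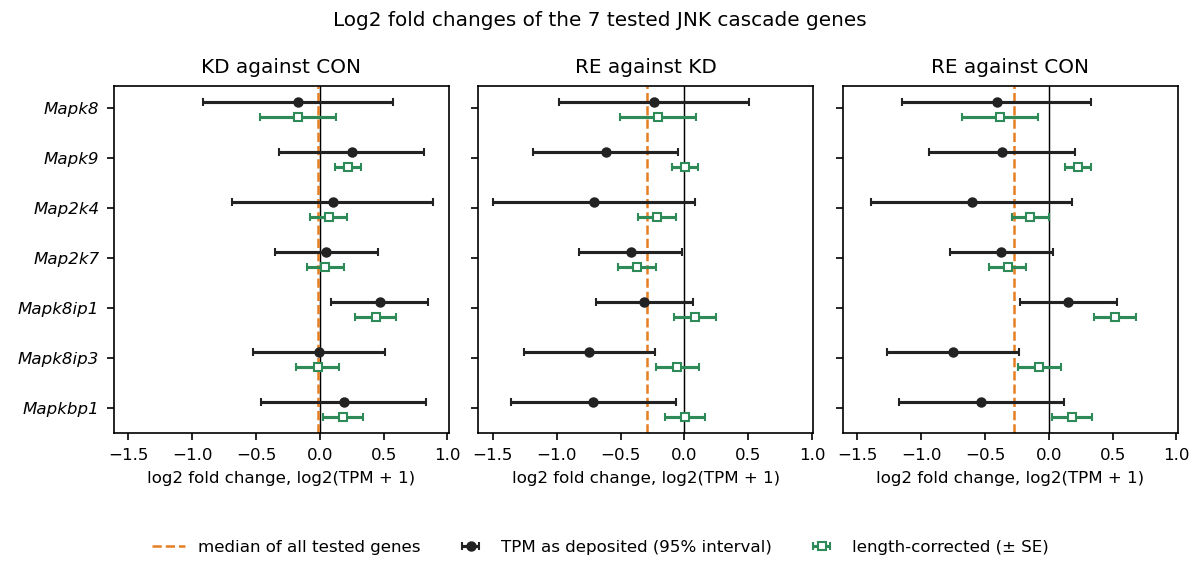
Log2 fold change on the log2(TPM + 1) scale (x axis) of the 7 tested JNK cascade genes (y axis) in the 3 comparisons, as deposited (circles, 95% interval) and after the length correction (squares, ± SE), with the median of all tested genes dashed. In RE against KD all 7 circles lie below 0, from -0.24 for Mapk8 to -0.74 for Mapk8ip3, and the squares from -0.37 for Map2k7 to 0.08 for Mapk8ip1.

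Leaving out CON 4 alone changed calls in both comparisons with RE. In RE against CON 6 of the 7 genes, all but Mapk8ip1, were then called lower (adjusted p of 0.00651 for Mapk8ip3 to 0.0392 for Mapk9), as were 41.9% of all tested genes. In RE against KD, where leaving out CON 4 changes only the shared spread, Mapk9, Mapk8ip3 and Mapkbp1 were called lower (0.0374 to 0.0482), as were 19.9% of all tested genes. A replicate block called Map2k4 and Mapk8ip3 lower there (0.0415 and 0.0425), with 18.4% of all genes. Without RE 1 and RE 3 as well, Mapk8ip3 alone was called lower in RE against CON (-0.66, 0.0454; 24.3% of all genes), and none in RE against KD. With the length correction on the median transcript none of the 7 was called in any comparison. The part of the length trend in the lower levels in RE was not tested.

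The levels of the tested genes ran together across the 12 libraries. Pearson correlations of log2(TPM + 1) between pairs lay between 0.28 (Mapk8 and Mapk8ip1) and 0.98 (Mapk9 and Map2k4). After the length correction they ran from -0.87 (Mapk8 and Mapkbp1) to 0.81 (Mapk9 and Mapk8ip1), and that of Mapk9 and Map2k4 was -0.37. The libraries share their length trend and the compositional scale of TPM, so these are descriptions. Among 9624 genes, those most like each gene as deposited were Krr1 for Mapk8 (r = 0.99), Fbxo30 for Mapk9 (0.99), Trappc10 for Map2k4 (1.00), Plekhm1 for Map2k7 (0.98), Uaca for Mapk8ip1 (0.94), Mllt6 for Mapk8ip3 (0.98) and Insr for Mapkbp1 (0.99). After the length correction the nearest were Ncbp2, Mier2, Sumo3, Tram2, Atg9a, Proser1 and Sirt4, in the same order, with r of 0.89 to 0.98.

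Around the cascade, 5 lists of other genes are described by their counts. Counts as deposited stand against 10.2%, 1.04% and 6.33% of all tested genes in KD against CON, RE against KD and RE against CON. Those with the length correction stand against the calls of that fit, which covered 11321 genes. It called 1346 higher and 1212 lower in KD against CON, and 122 and 102 in RE against KD. In RE against CON it called 900 higher and 598 lower. Of 22 tested MAP3K and MAP4K genes above JNK, 0 were called in any comparison by limma, with 2, 5 and 10 at an unadjusted p below 0.05 (23.8%, 28% and 28.4% of all tested genes). Their median log2 fold change was 0.04 in KD against CON, -0.64 in RE against KD and -0.66 in RE against CON, and 0.03, 0.01 and -0.04 with the length correction (21 genes, with 2 called higher in RE against CON).

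Of 14 other scaffolds and regulators, 1 rose and 1 fell in KD (list median -0.14; 10.2% of all tested genes were called). With the length correction 2 rose and 1 fell in KD, where that fit called 1346 of all genes higher and 1212 lower. In RE against CON 1 rose and 1 fell with it, against 900 and 598 of all genes. There Sh3rf3 was higher by 1.52 (limma adjusted p = 0.000348), and as deposited by 1.04, which was not called (0.0610). Sh3rf3, of the POSH scaffold family, rose by 2.103 ± 0.30 on the log2 scale, with means of 0.875 ± 0.421 TPM in CON and 7.19 ± 2.49 in KD (adjusted p = 0.000713), and Arrb2, for beta-arrestin 2, which binds JNK3, fell from 43.6 ± 4.97 to 25.7 ± 2.96 TPM (-0.74 ± 0.15, adjusted p = 0.00816). Each of these genes separated KD from CON without overlap, and no gene of the list was called in RE against KD. Arrb2 was also lower in RE than in CON (-0.60 ± 0.15, adjusted p = 0.0350), a call lost with median-of-ratios scaling (-0.30, 0.242), in the fit of those groups alone (0.114) and in 7 single omissions (CON 1, CON 2, CON 3, KD 4, RE 2, RE 3, RE 4; up to 0.132).

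Of 10 phosphatases known to act on JNK, 1 rose and 1 fell in KD (list median 0.14), against 10.2% of all tested genes called. With the length correction 1 rose and 2 fell, in a fit that called 1346 of all genes higher and 1212 lower. Dusp1, an inducible nuclear MAP kinase phosphatase, rose from 71.6 ± 18.3 to 194 ± 31.2 TPM (1.44 ± 0.23, adjusted p = 0.00182) and stood at 118 ± 36.5 in RE. Dusp22, a phosphatase that modulates JNK signalling, fell from 10.8 ± 1.32 to 2.60 ± 0.320 TPM (-1.71 ± 0.19, adjusted p = 0.000118) and remained lower than CON in RE at 3.27 ± 0.859 TPM (-1.49 ± 0.19, adjusted p = 0.000402). Neither was called in RE against KD (adjusted p = 0.112 and 0.397). These calls against CON held in each fit that left out 1 library.

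Of 19 JNK substrates and AP-1 factors, 1 rose and 2 fell in KD (list median 0.06), and in RE against CON 1 rose and 2 fell, against 10.2% and 6.33% of all tested genes called. With the length correction 2 rose and 2 fell in KD, and 1 rose in RE against KD (Stmn1, 0.94, adjusted p = 0.0440). That fit called 1346 of all genes higher and 1212 lower in KD, and 122 and 102 in RE against KD. Atf3, a stress-induced transcription factor of the ATF family, stood at 30.0 ± 13.1 TPM in CON, 8.97 ± 1.89 in KD (-1.52 ± 0.35, adjusted p = 0.0148, lost without CON 1 or CON 2, up to 0.0529) and 3.49 ± 1.41 in RE (-2.70 ± 0.35 against CON, adjusted p = 0.000436). Stmn1, for the microtubule-destabilising protein stathmin, a JNK substrate, fell from 264 ± 39.0 to 126 ± 46.3 TPM in KD (-1.12 ± 0.25, adjusted p = 0.0133, lost without KD 1 or KD 2, at 0.0506 each, and with median-of-ratios scaling, at 0.0545), and stood at 265 ± 66.4 in RE. Fosb rose in KD by 0.70 ± 0.19 (adjusted p = 0.0328), which did not pass when CON 1, CON 2, CON 3, KD 1, KD 2 or KD 4 was left out (up to 0.111), with either length correction (0.119 and 0.0966) and with median-of-ratios scaling (0.0678). In RE against CON, Fosl1, for the AP-1 protein FRA-1, rose by 0.90 ± 0.16 (adjusted p = 0.00482, from 104 ± 19.9 to 192 ± 13.9 TPM). Bcl2l11, for the cell death protein BIM, fell there (-1.15 ± 0.28, adjusted p = 0.0298, lost without CON 1, CON 2, CON 3, RE 1, RE 2 or RE 3, up to 0.111, and in the fit of those groups alone, 0.0656). Jun, the substrate that gave the kinases their name and a gene outside the rule for named genes, stood at 82.4 ± 16.1, 63.3 ± 18.9 and 74.2 ± 28.0 TPM in CON, KD and RE and was not called (adjusted p = 0.505, 0.691 and 0.602).

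Of 11 kinases of the p38 and ERK cascades, 1 was called in KD against CON and 1 in RE against CON, where 10.2% and 6.33% of all tested genes were called. The counts were the same with the length correction, which called more of all genes in both comparisons. Map2k6, for MKK6, which activates p38, rose from 20.9, 18.9, 15.7 and 12.9 TPM in CON 1 to 4 to 32.6, 31.4, 36.0 and 35.2 in KD and stood at 26.0, 40.5, 30.6 and 33.9 in RE. All KD and RE libraries lay above all CON libraries. The log2 fold change was 0.96 ± 0.18 in KD against CON (adjusted p = 0.00516) and 0.90 ± 0.18 in RE against CON (adjusted p = 0.0107), of which the second was lost in the fit of those groups alone (0.0662). The same list had 0 called in RE against KD by limma, with 1 at an unadjusted p below 0.05.

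**Figure D5:**
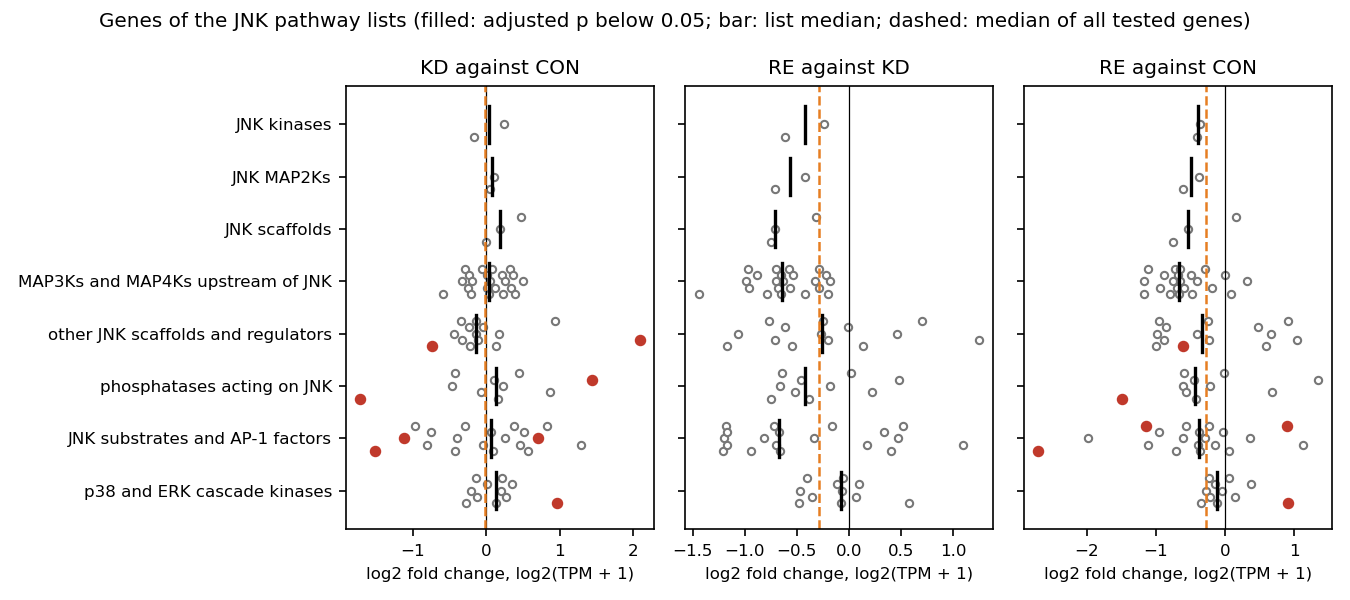
Log2 fold change on the log2(TPM + 1) scale (x axis) of each tested gene of 8 lists around JNK (y axis) in the 3 comparisons, filled where the adjusted p was below 0.05, with the list median as a bar and the median of all tested genes dashed. Filled points lie in the 4 lower lists, from -2.70 (Atf3 in RE against CON) to 2.103 (Sh3rf3 in KD against CON), and none in RE against KD.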

How the data were processed

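RNA-seq libraries of CON, KD and RE cells (4 each) were compared from 1 table of TPM that the authors deposited. Reads were handled with Trim Galore 0.6.6, TopHat2 2.1.1 and Cufflinks 2.2.1 on mm10, per the submitters' processing notes; the step that gave TPM, and any use of strand, are not given in the sources used here. Since TPM keeps no depth, counting error cannot be stated, and precision rests on the 4 libraries per group. Columns named WT were taken as CON from the genotype label, without a match to single CON samples.

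The 11774 genes averaging at least 1 TPM were tested on log2(TPM + 1), a scale that understates changes of low genes, in 1 limma 3.58.1 model (R 4.3.3) with a mean per group, a mean-variance trend and Benjamini-Hochberg adjustment over all tested genes; adjusted p below 0.05 is a call. The groups share 1 spread. Transcript lengths and positions come from GENCODE vM21 basic (GRCm38), with 22114 of 23184 symbols matched. The length correction subtracts from each library a loess trend (span 0.5) of its deviations on log2 length. Genes named beside the 9 are Wdr62, the 3 called genes of each list with the largest change per comparison, and the gene with the highest correlation to each (mean of at least 5 TPM). The genes and lists were chosen with earlier results of these data known.

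Settings changed one at a time were the pseudocount (0.1), the filter (none, or 5 TPM), the scaling (median of ratios), the libraries fitted (the compared groups alone; without each library; without CON 4, RE 1 and RE 3), a replicate block and the length correction. Chosen after seeing the data were the correction on the longest transcript, scaling without those 3 libraries, and all refits of Mapk10 with no filter.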

Additional observations from a re-analysis of the deposited data

Results flagged for a closer look

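Of 25 sets of 4 libraries examined for a single far value, 2 held one. A chance rate of about 1 in 20 would assume independent sets, and these genes share their libraries. Map2k4 stood at 23.0 TPM in CON 4, with a gap to the next CON library of 85.3% of the range of the group. CON 4 was also the library whose long transcripts were low. Mapk8ip2 was listed at 0.0350 TPM in CON 3 and at 0 in the other CON libraries, so that any value above 0 there would have been flagged.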

How the results depend on the processing

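The count of 0 called members held in each comparison with median-of-ratios scaling, the length correction, the compared groups alone, a 5 TPM filter and a pseudocount of 0.1. With no TPM filter it was 1, 1 and 0 (KD against CON, RE against KD, RE against CON; Mapk10), without CON 4, RE 1 and RE 3 it was 2, 0 and 1, with the length correction on the longest transcript 1, 0 and 0, and with median-of-ratios scaling without those 3 libraries 1, 0 and 1. Leaving out 1 library gave 0 to 0, 0 to 3 and 0 to 6. The replicate block, possible for KD and RE alone because the CON columns carry no sample number, gave 2 members in RE against KD (Map2k4 and Mapk8ip3) and 0 with the length correction. Whether the numbers pair the libraries was not settled. Same-numbered KD and RE deviations correlated at -0.55, 0.65, 0.24 and -0.25 for KD 1 to 4. The largest correlation with another number was 0.56, 0.22, 0.64 and 0.27. These deviations were taken without the length correction, so they also carry the length trend and cannot decide the question. Over all genes in RE against KD, the fit of KD and RE alone called 9 higher and 46 lower without the block, 308 and 2144 with it, and 3 and 5 with the block and the length correction.

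Some members that missed the threshold changed sign; the cause was not tested. In KD against CON without CON 4, RE 1 and RE 3, Map2k4 was -0.27, Map2k7 -0.079 and Mapkbp1 -0.063, and with scaling of those libraries Map2k4 was -0.13. In RE against KD, Mapk8 was 0.050 with median-of-ratios scaling, 0.10 without the 3 libraries, 0.20 with both and 0.43 with the length correction on the longest transcript. Mapk8ip1 was 0.0043 with scaling, 0.042 with scaling without the 3 libraries, 0.083 with the length correction, 0.025 on the longest transcript and 0.085 with the block and correction. Mapk9 was 0.0034 with the correction and 0.0071 with the block and correction, and Mapkbp1 0.0021, 0.0065 and, on the longest transcript, 0.034. In RE against CON, the length correction gave 0.23 for Mapk9, 0.18 for Mapkbp1 and 0.51 for Mapk10 with no filter, and on the longest transcript 0.14 for Mapk9, 0.22 for Mapkbp1 and 0.23 for Mapk8. Leaving out 1 library gave ranges across 0 in KD against CON for Mapk8 (-0.50 to 0.011), Mapk8ip3 (-0.17 to 0.13), Map2k4 (-0.27 to 0.27), Map2k7 (-0.079 to 0.14) and Mapkbp1 (-0.063 to 0.37), and in RE against KD for Mapk8 (-0.41 to 0.021) and Wdr62 (-0.095 to 0.16).

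Counts over all genes moved by more than 1.5 times in several fits. In KD against CON (777 higher, 425 lower) they were 1346 and 1212 with the length correction, 1683 and 2986 without CON 4, RE 1 and RE 3, and 876 and 676 with scaling; in RE against KD (22 and 101) 122 and 102, 20 and 43, and 35 and 46; in RE against CON (318 and 427) 900 and 598, 957 and 2867, and 586 and 488. With scaling and without the 3 libraries they were 2272 and 2148, 21 and 38, and 1694 and 1691, with a 5 TPM filter 551 and 273, 16 and 66, and 214 and 238, with no filter 983 and 684, 25 and 114, and 375 and 698, and with the compared groups alone 820 and 517, 9 and 46, and 148 and 270. Leaving out 1 library gave 494 to 1119 and 245 to 1287, 2 to 451 and 11 to 2347, and 161 to 1277 and 243 to 4935.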

Other observations

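The following ratios were picked after their values were seen and carry no test. Mapk8ip1 took 46.4% to 47.5% of the summed TPM of the 4 scaffold genes in RE, above all KD (34.5% to 45.8%) and CON libraries (28.2% to 40.1%), and Mapk8ip3 36.2% to 40.5% in RE, below all KD (41.3% to 48.3%) and CON libraries (47.4% to 53.1%). Among libraries with low long transcripts, CON 4 had the highest Mapk8ip1 share in CON (40.1%, against 28.2% to 32.5%) and KD 3 the highest in KD (45.8%), while RE 1 and RE 3 (47.5% and 47.02%) lay near RE 2 and RE 4 (46.96% and 46.4%). The part of the length trend in these shares was not tested. The ratio of Map2k4 to Map2k7 was lowest in CON 4 (0.956) and RE 3 (0.976), and the next lowest was 1.25 in RE 1.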
